A study of Sus scrofa with 3 samples.

Results

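The subject is a set of 10 genes of bacterial and viral sensing in 3 pig cell populations: the Toll-like receptors (TLR) TLR2, TLR3, TLR4, TLR7, TLR8 and TLR9, the co-receptors CD14 and LY96, and the adaptors MYD88 and TICAM1. They were taken by symbol, and all 10 had a row of their own among 26466 gene symbols. The populations were peripheral blood mononuclear cells (PBMC), mesenchymal stem cells derived from bone marrow (BM-MSC) and cells labelled as bone marrow attached cells (BMAC), with 1 library each. The labels name no strain, age, animal, passage or treatment for any of them, and they do not say whether the libraries share an animal. Libraries were made with the Lexogen QuantSeq kit, which reads polyadenylated RNA close to its 3' end. Levels are given as counts per 1000000 (CPM) with the raw count, and a 95% interval covers counting error only. With 1 library per population no difference has a replicate check, and no test was run.

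Toll-like receptors are membrane proteins that recognise microbial products. TLR1, TLR2, TLR4, TLR5, TLR6 and TLR10 act at the cell surface, where TLR2 pairs with TLR1 or TLR6 to bind lipopeptides and TLR4 binds lipopolysaccharide (LPS) through its partner LY96 (MD-2). TLR3, TLR7, TLR8 and TLR9 sense RNA or DNA in endosomes. All but TLR3 signal through the adaptor MYD88, whereas TLR3 and, from endosomes, TLR4 use TICAM1 (TRIF), and both routes lead to NF-kB and interferon regulatory factors. CD14, a surface protein best known as a monocyte marker, hands LPS to TLR4 and LY96.

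PBMC, BM-MSC and BMAC held 15445903, 17069344 and 15122997 counts, so that 3 counts, the value taken for a count of 0 in ratios, correspond to 0.194, 0.176 and 0.198 CPM. Markers went with the labels: 5 pan-leukocyte genes summed to 5170 CPM in PBMC against 3.75 in BM-MSC and 2.45 in BMAC, and 7 stromal genes to 3.63 CPM against 13100 and 11500. In the same order of libraries, monocyte and macrophage markers summed to 988, 135 and 29.9 CPM, B cell markers to 2080, 5.04 and 4.69, plasmacytoid dendritic cell markers to 908, 188 and 256, T cell markers to 777, 1.93 and 1.72, natural killer cell markers to 223, 1.46 and 0.661, granulocyte markers to 51.9, 0.586 and 0.529, and endothelial markers to 170, 71.1 and 112. The monocyte and macrophage sums of the marrow libraries rest mostly on CD86 (98.7 CPM in BM-MSC and 7.01 in BMAC) and SIRPA (27.5 and 18.3 CPM). The endothelial sums rest mostly on PECAM1 in PBMC (145 CPM) and on ERG in BM-MSC and BMAC (52.6 and 80.2 CPM). CDH5 and KDR were under 1 CPM in every library, and VWF was at 5.24, 2.34 and 3.5 CPM. TEK, whose row overlaps LOC102166359, was at 12.2, 0.41 and 0.727 CPM. Among the plasmacytoid dendritic cell markers, TCF4, which stromal cells also make, took 345, 168 and 247 CPM, and SPIB had 0 counts in both marrow libraries. PLAC8 was at 454, 19.1 and 3.11 CPM, IRF8 at 67.4, 0.41 and 5.62 CPM, and IL3RA at 14.8, 0.234 and 0 CPM. These values are from bulk RNA, in which fewer cells of a type and less RNA per cell cannot be told apart.

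The members divided by population. TLR2 and TLR8 were far higher in PBMC than in either marrow population. TLR3 and TLR4 were higher in the marrow populations, at low levels. CD14 was highest in BMAC and lowest in BM-MSC, and LY96 differed little between the libraries. The rows of TLR9 and MYD88, each of which overlaps the row of another gene, could not be read as levels of those genes. The rows of TLR7 and TLR8 overlap each other, and whether the TLR8 row holds reads of TLR7 was not tested.

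A gene was called different between 2 libraries on 2 conditions. Its log2((CPM + 1)/(CPM + 1)) had to reach 2 in size, or 4-fold after adding 1 CPM, and its higher level had to reach a floor of 10 CPM and 10 counts. In each comparison with PBMC, 6 members reached the floor, and 2 of them, TLR2 and TLR8, were called higher in PBMC than in the marrow population. Over all genes above the floor, 15.7% were called higher in PBMC than in BM-MSC and 12.8% higher in PBMC than in BMAC. TLR2 and TLR8 reached the floor through PBMC alone, so their count describes them and supports nothing. No member was called higher in BM-MSC or in BMAC than in PBMC, where 14.3% and 14% of genes were. Between BMAC and BM-MSC 4 members reached the floor and 0 were called, against 3.21% of genes called higher in BMAC and 2.9% called higher in BM-MSC. TLR3, TLR4, TLR7 and MYD88 were below the floor in every library. The 2 comparisons with PBMC share that library, so they are not independent.

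**Figure D1:**
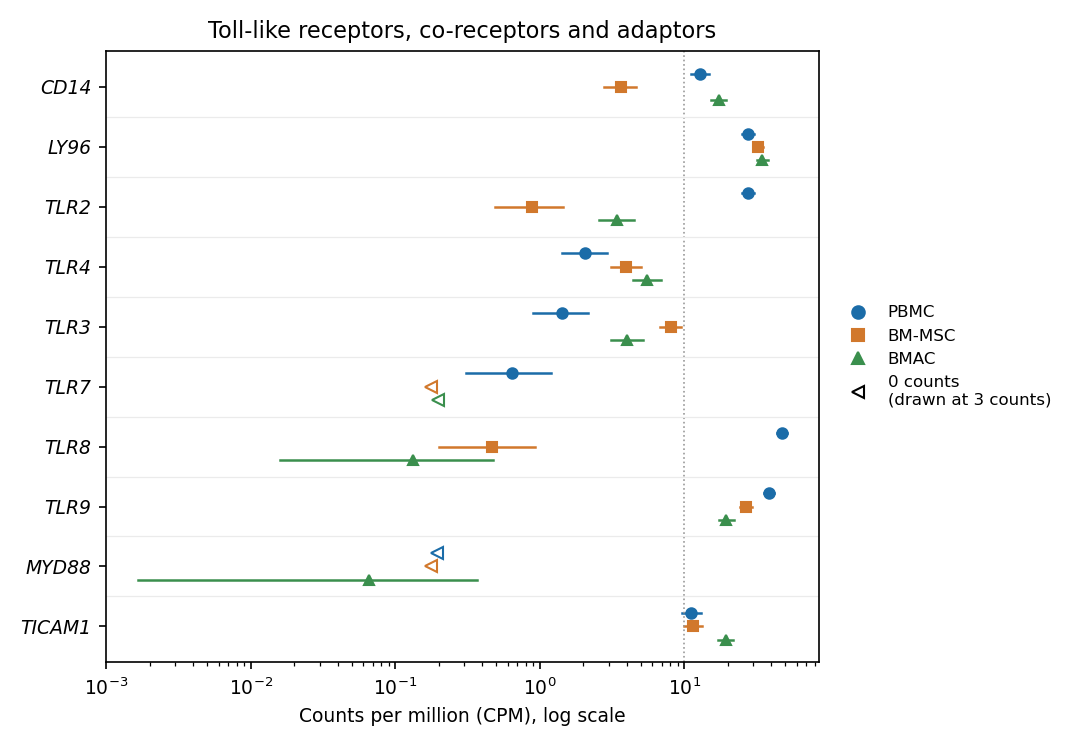
Level of each of the 10 genes (rows) in CPM on a log axis, with 1 point per library and lines for the 95% Poisson interval; open triangles mark 0 counts, drawn at 3 counts, and the dotted line marks 10 CPM. TLR2 and TLR8 stand apart in PBMC, at 27.7 and 47.5 CPM, while the 3 points of LY96 lie between 27.8 and 34.6 CPM.

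Among the co-receptors, CD14 stood at 12.9 CPM in PBMC (200 counts), 3.63 CPM in BM-MSC (62 counts) and 17.3 CPM in BMAC (261 counts). BMAC and PBMC were close, and BM-MSC lay below both. The BMAC level was 4.75-fold that of BM-MSC (3.59 to 6.37) and 1.33-fold that of PBMC (1.1 to 1.61), and PBMC was 3.56-fold above BM-MSC (2.67 to 4.82). After the pseudocount the log2 ratio of BMAC to BM-MSC was 1.98, just short of the threshold of 2, and it was 2.10 with a pseudocount of 0.5 CPM.

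Most other monocyte and macrophage markers were low in BMAC, and which cells held its CD14 RNA was not tested. Of 12 monocyte and macrophage markers, 9 were under 1 CPM in BMAC, and LYZ (lysozyme) and FCER1G (an Fc receptor chain) had 0 counts there against 1475 and 668 in PBMC. CSF1R, the receptor for the macrophage growth factor, had 2 counts in BMAC, 0 in BM-MSC and 691 in PBMC. TYROBP, a signalling adaptor of myeloid cells, had 3 counts in BMAC (0.198 CPM) against 3442 in PBMC (223 CPM), and CD163, a scavenger receptor of macrophages, 3 against 485. The marker that reached 10 CPM in BMAC was SIRPA, an inhibitory receptor not limited to myeloid cells, at 18.3 CPM against 27.5 CPM in BM-MSC and 62.5 CPM in PBMC. In BM-MSC 6 of the 12 markers were under 1 CPM, and CD86, a costimulatory ligand, stood apart at 98.7 CPM against 7.01 CPM in BMAC and 226 CPM in PBMC.

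**Figure D2:**
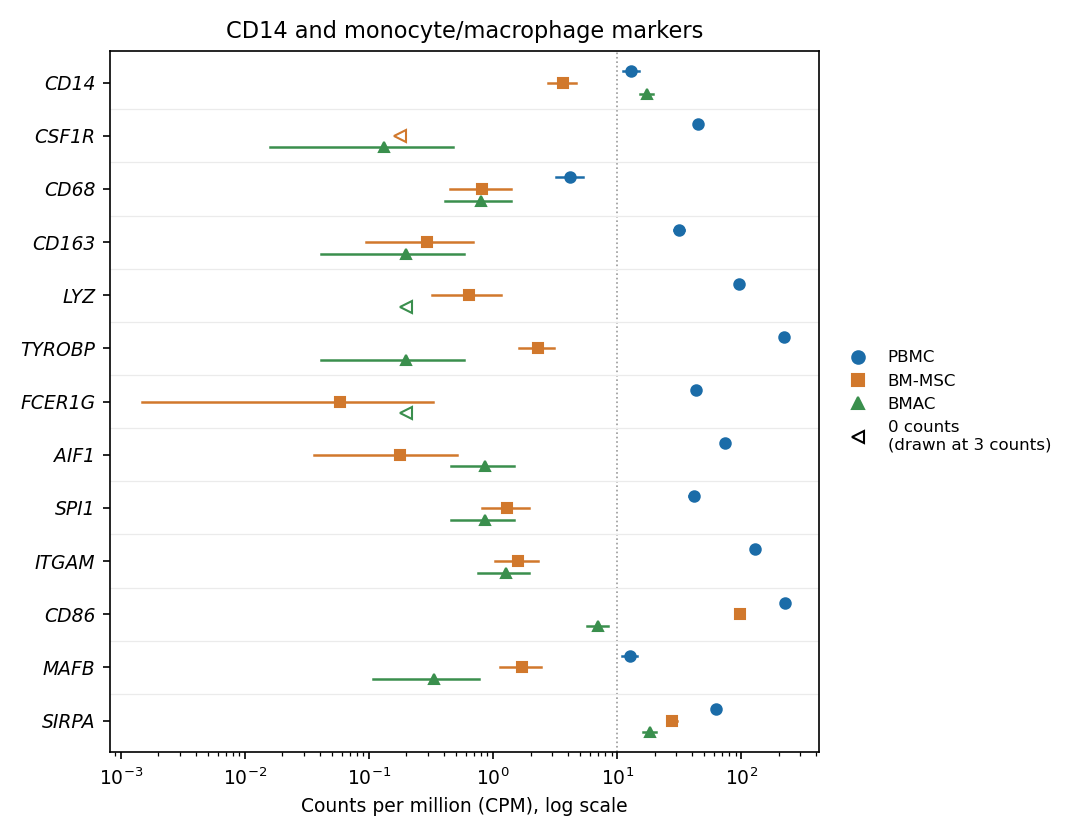
CD14 (top row) and 12 monocyte and macrophage markers in CPM on a log axis, with 1 point per library, 95% Poisson intervals as lines and open triangles for 0 counts; the dotted line marks 10 CPM. The BMAC point of CD14 (17.3 CPM) lies beside that of PBMC (12.9 CPM), while the BMAC points of 9 markers lie under 1 CPM.

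LY96, the LPS-binding partner of TLR4, was at 27.8 CPM in PBMC (429 counts), 32.5 CPM in BM-MSC (555 counts) and 34.6 CPM in BMAC (523 counts). The libraries were close to each other, and the order of BM-MSC and BMAC was not resolved (1.06-fold, 0.942 to 1.2). Against PBMC, LY96 was 1.17-fold higher in BM-MSC (1.03 to 1.33) and 1.25-fold higher in BMAC (1.09 to 1.42), log2 ratios of 0.22 and 0.31 beside medians of -0.16 and -0.12 over all genes above the floor.

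TLR4, the LPS receptor, was low throughout, at 2.07 CPM in PBMC (32 counts), 3.98 CPM in BM-MSC (68 counts) and 5.55 CPM in BMAC (84 counts). Both marrow populations lay above PBMC, by 1.92-fold (1.25 to 3.03) and 2.68-fold (1.76 to 4.16). BMAC was 1.39-fold above BM-MSC, with an interval that reached down to 1 (up to 1.95), so these neighbours in the order were barely resolved by counting error alone. Of the 3 components of the LPS receptor, then, LY96 and TLR4 were at least as high in both marrow libraries as in blood, and CD14 was so in BMAC.

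TLR2, the lipopeptide receptor, stood at 27.7 CPM in PBMC (428 counts), 0.879 CPM in BM-MSC (15 counts) and 3.44 CPM in BMAC (52 counts). The PBMC level was 31.5-fold that of BM-MSC (18.9 to 56.8) and 8.06-fold that of BMAC (6.03 to 11). Between the marrow populations, BMAC was 3.91-fold above BM-MSC (2.17 to 7.48), on few counts. CD14 and TLR2 thus shared the order of BMAC over BM-MSC, though PBMC and BMAC were close for CD14 and far apart for TLR2.

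Of 4 further surface receptors, TLR1, TLR5, TLR6 and TLR10, TLR6 alone reached the floor, through PBMC. TLR6, which pairs with TLR2, was at 14.8 CPM in PBMC (229 counts), 1.82 CPM in BM-MSC (31 counts) and 0.727 CPM in BMAC (11 counts), and was called higher in PBMC against both. PBMC was 8.16-fold above BM-MSC (5.59 to 12.3) and 20.4-fold above BMAC (11.2 to 41.4), and BM-MSC was 2.50-fold above BMAC (1.22 to 5.51), the reverse of the order for TLR2. In PBMC, BM-MSC and BMAC, TLR1, the other partner, had 41, 17 and 0 counts, TLR5, the flagellin receptor, 18, 6 and 3, and TLR10 19, 3 and 0. These 3 genes were below the floor in every library and were not called. TLR1, TLR6 and TLR10 are related genes, and how reads that fit more than 1 of them were treated is not given in the sources used here.

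Other proteins that serve the receptors were split. LY86 (MD-1) and CD180, partners that form an LPS-responsive complex on B cells, were called higher in PBMC against both marrow libraries. In PBMC, BM-MSC and BMAC, LY86 was at 285, 0.293 and 1.19 CPM, and CD180 had 184, 8 and 0 counts. CD36, a scavenger receptor that assists TLR2, was at 14.2, 2.52 and 3.11 CPM, called against BM-MSC, though not with TMM or median-of-ratios scaling, and not called against BMAC. UNC93B1, which carries the nucleic acid receptors to endosomes, was at 51.7, 26.6 and 13.9 CPM in PBMC, BM-MSC and BMAC, each level below the one before by 1.94-fold (1.73 to 2.19) and 1.92-fold (1.62 to 2.27). The folding chaperone HSP90B1, which overlaps the row C5H12orf73, was within 1.44-fold in all pairs. Its cofactor CNPY3 was highest in PBMC (18.8 CPM against 6.33 in BM-MSC and 8.86 in BMAC). The related CNPY4, whose row overlaps MBLAC1, was called higher in both marrow libraries (18.2 and 20.6 CPM against 3.76 CPM). LBP, the serum protein that brings LPS to CD14, was at or under 1.42 CPM in every library. Of these 8 genes 7 were above the floor, 4 of them through PBMC alone and 1 through the marrow library alone. Of the 7, 3 were called higher in PBMC than in BM-MSC and 2 higher in PBMC than in BMAC, with 1 called the other way in each. Over all genes above the floor, 15.7% and 12.8% were called higher in PBMC, and 14.3% and 14% the other way. The median log2 ratios were -1.43 and -1.82, beside -0.16 and -0.12 over all genes. These counts and medians describe the genes and support nothing.

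TLR3, the receptor for double-stranded RNA, had the opposite order to TLR2. It stood at 1.42 CPM in PBMC (22 counts), 8.08 CPM in BM-MSC (138 counts) and 4.03 CPM in BMAC (61 counts), and the 3 intervals did not overlap. BM-MSC was 5.68-fold above PBMC (3.60 to 9.35) and 2-fold above BMAC (1.47 to 2.76), and BMAC was 2.83-fold above PBMC (1.71 to 4.84). TLR3 was below the floor of 10 CPM and its log2 ratio of BM-MSC to PBMC after the pseudocount was 1.91, so it was not called. That ratio was 2.14 with TMM and 2.16 with median-of-ratios scaling, where TLR3 was still not called. It was 2.16 with a pseudocount of 0.5 CPM and 1.03 with 1 of 5 CPM.

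TLR8, a receptor for single-stranded RNA, had 733 counts in PBMC (47.5 CPM), 8 in BM-MSC (0.469 CPM) and 2 in BMAC (0.132 CPM). PBMC stood far above the marrow libraries, by 101-fold (51.1 to 235) and 359-fold (99 to 2970), and the marrow libraries were not resolved from each other (3.54-fold, 0.707 to 34.3). TLR7, its close relative, had 10 counts in PBMC and 0 in BM-MSC and BMAC. With 0 taken as 3 counts it was 3.68-fold and 3.26-fold lower there, values without an interval. The row of TLR7 lies within the span of the row of TLR8 in the RefSeq annotation of the assembly Sscrofa11.1, and that table lists TLR7 as a synonym of TLR8. Whether part of the TLR8 count belongs to TLR7 was not tested. The higher TLR8 and TLR2 levels in PBMC went with the leukocyte marker sums given above, and the part of those cells in the difference was not tested.

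**Figure D3:**
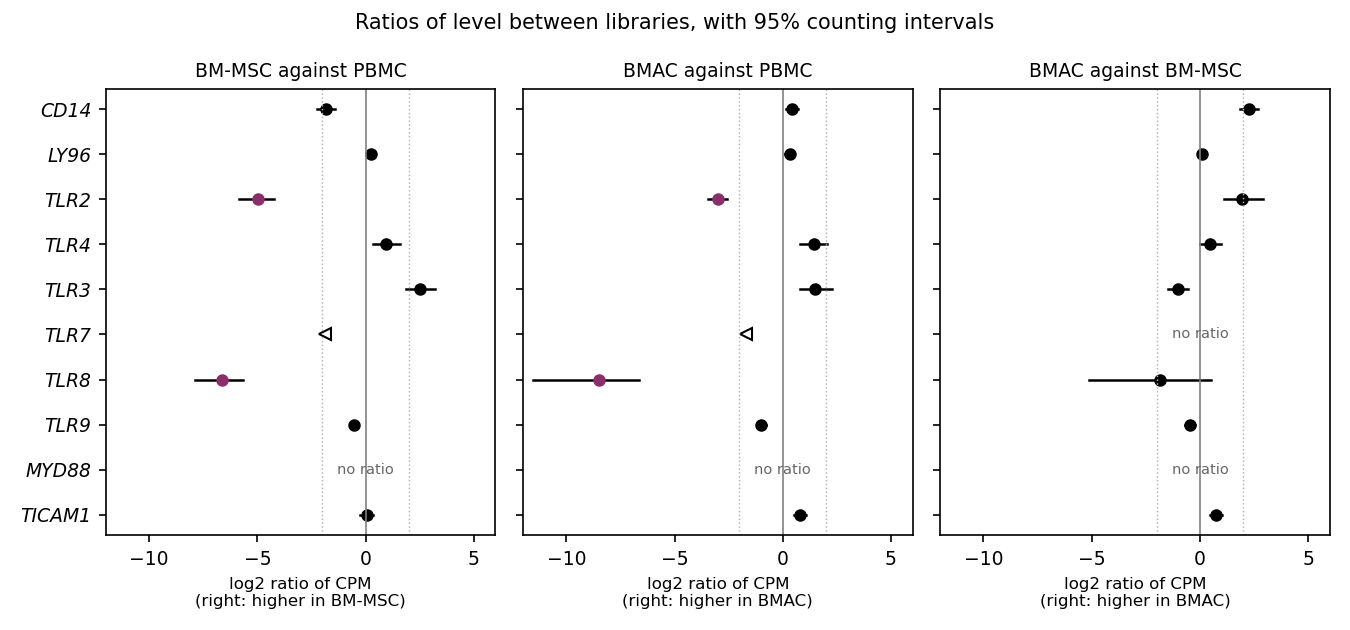
Log2 ratio of CPM without pseudocount for each gene in the 3 pairs of libraries, with 95% exact intervals for counting error. Purple points passed the 4-fold rule, open triangles are ratios against 0 counts taken as 3, and dotted lines mark 4-fold. TLR2 and TLR8 lie far to the left in both pairs with PBMC, and TLR3 lies to the right in the same pairs. CD14 (BMAC against BM-MSC, 4.75-fold) and TLR3 (BM-MSC against PBMC, 5.68-fold) lie beyond a dotted line without passing the rule, which adds a pseudocount and a floor.

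TLR9, the receptor for unmethylated CpG DNA, had a row with 598 counts in PBMC (38.7 CPM), 457 in BM-MSC (26.8 CPM) and 295 in BMAC (19.5 CPM). Its row overlaps that of TWF2, an actin-binding protein gene, in the RefSeq annotation. TWF2 had 580, 452 and 285 counts, so that the rows differed by 18, 5 and 10 counts. The TLR9 row thus held 103%, 101% and 104% of the count of TWF2. Among 1175 overlapping pairs of rows with at least 100 counts in every library, 60 (5.11%) agreed within 10% in all 3 libraries, against 2 of 2801 (0.0714%) neighbouring rows that do not overlap. Most overlapping pairs thus did not agree so closely, and whether TLR9 and TWF2 share reads was not tested. Since strand use is not given, the reads of TLR9 and TWF2 cannot be told apart, and the ratios of the row (1.45-fold, 1.28 to 1.64, higher in PBMC than in BM-MSC) are not read here as a difference in TLR9.

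MYD88, the shared adaptor, had a single count in all, in BMAC, and 0 in PBMC and BM-MSC. Its row lies within the span of the row of ACAA1, a peroxisomal enzyme gene, which held 738, 678 and 467 counts. The row of ACAA1 also overlaps that of DLEC1. Counts of 3' fragments depend on where the annotated transcript ends, and MYD88 is widely transcribed in blood and stromal cells, so that these values do not show its absence. Whether reads of MYD88 were given to another row was not tested. No fold was computed.

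**Figure D4:**
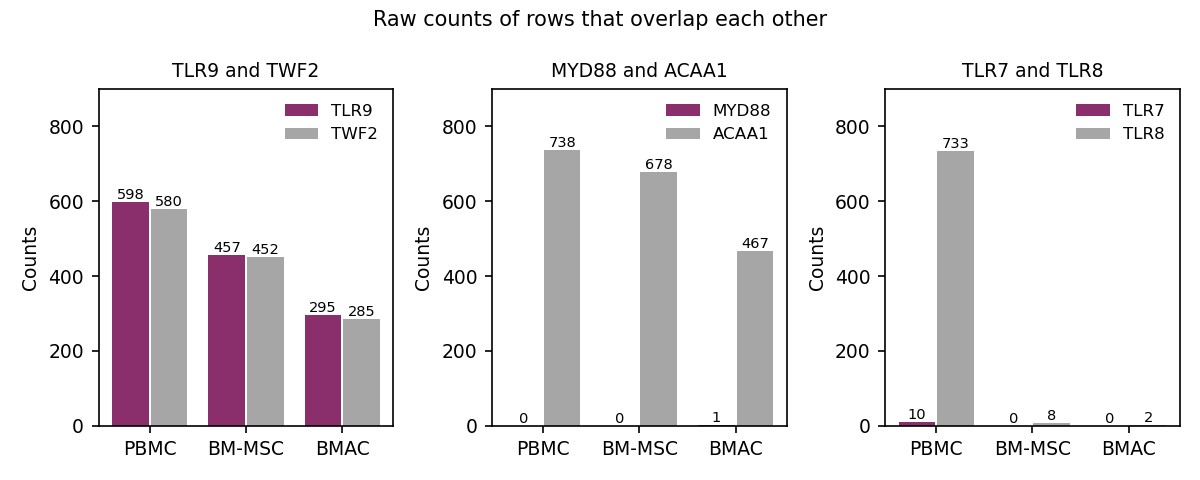
Raw counts (linear axis from 0) of 3 pairs of overlapping rows in each library. The bars of TLR9 and TWF2 are nearly equal in all 3 libraries (598 and 580 in PBMC), MYD88 is at 0 or 1 beside 467 to 738 counts of ACAA1, and TLR7 is at 10 or 0 beside 733 counts of TLR8 in PBMC.

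TICAM1, the adaptor of TLR3, was at 11.2 CPM in PBMC (173 counts), 11.5 CPM in BM-MSC (197 counts) and 19.4 CPM in BMAC (293 counts). PBMC and BM-MSC were not resolved (1.03-fold, 0.836 to 1.27), and BMAC was 1.73-fold (1.43 to 2.10) and 1.68-fold (1.40 to 2.02) above them. Of 4 other adaptors, TIRAP, which links MYD88 to TLR2 and TLR4, was slightly higher in the marrow libraries (17.9 and 17.3 CPM against 12.9 CPM in PBMC). TICAM2 (TRAM), which links TICAM1 to TLR4, was highest in PBMC at 6.99 CPM, with 2.11 and 2.78 CPM in BM-MSC and BMAC. SARM1, a negative adaptor, was at 25.2, 10.7 and 11.1 CPM. PIK3AP1 (BCAP), an adaptor of B and myeloid cells, was the 1 of 3 above the floor that was called, at 245 CPM in PBMC against 6.15 CPM (39.8-fold, 32.8 to 48.8) and 11 CPM (22.2-fold, 19 to 26.1). Over all genes above the floor, 15.7% and 12.8% were called higher in PBMC than in BM-MSC and BMAC.

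Downstream kinases and ubiquitin ligases were present in all libraries, with all 18 listed genes above the floor. In BM-MSC 6 of 18 were called lower than in PBMC, where 15.7% of all genes were, and 0 higher (median log2 ratio -1.18, all genes -0.16), with 5 of the 18 at the floor through PBMC alone. In BMAC 3 of 18 were called lower, a share near the 12.8% of all genes, and 0 higher (median -0.60, all genes -0.12), and of these 3, IRAK2, TAB3 and PELI1, only PELI1 was called under TMM or median-of-ratios scaling. In PBMC, BM-MSC and BMAC, IRAK2, a kinase of the MYD88 complex, was at 118, 8.2 and 23.8 CPM. PELI1, a ubiquitin ligase acting on that complex, was at 233, 21.6 and 32.5 CPM. TAB3, a subunit of the TAK1 kinase complex, was at 59.1, 6.56 and 12.2 CPM. The central members were closer, with TRAF6 at 17.5, 26.2 and 14.7 CPM and TBK1, the kinase of the TICAM1 route, at 37.7, 28.5 and 39.8 CPM. Between the marrow libraries, 1 of the 18 was called, PELI2, another ligase of that family, at 285 CPM in BMAC against 57.8 CPM in BM-MSC (4.94-fold, 4.61 to 5.30). Over all genes above the floor, 3.21% were called higher in BMAC and 2.9% higher in BM-MSC, so 1 call describes PELI2 alone.

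Among 11 transcription factors of the pathway, 10 were above the floor against PBMC, and 4 were called lower in BM-MSC and 4 lower in BMAC, with 0 called higher (medians -1.91 and -1.15, beside 15.7% and 12.8% of all genes called lower). In each pair 3 of the 10 reached the floor through PBMC alone, so these counts describe the genes and support nothing. IRF5, which acts downstream of MYD88 and overlaps the row KCP, was at 55.4 CPM in PBMC against 0.527 and 0.529 CPM. IRF8, a factor of myeloid and B cells, was at 67.4, 0.41 and 5.62 CPM. REL, an NF-kB subunit that overlaps PUS10, was at 228, 14.9 and 41.3 CPM. RELA, the NF-kB subunit named p65, was at 30 CPM in PBMC and 27.8 CPM in BMAC but 7.15 CPM in BM-MSC, 3.89-fold lower than in BMAC (3.18 to 4.80). IRF3, the factor of the TICAM1 route, was within 1.67-fold in all pairs (17.9, 14.5 and 24.2 CPM). FOS was the 1 factor of 8 above the floor called between the marrow libraries, at 1.92 CPM in BMAC against 11.1 CPM in BM-MSC. It reached the floor through BM-MSC alone. Over all genes above the floor, 2.9% were called higher in BM-MSC than in BMAC and 3.21% the other way.

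TNFAIP3, NFKBIA and IRAK3 were the negative regulators called higher in BMAC than in BM-MSC, 3 of 9 above the floor, with 0 called lower (median 1.89, all genes 0.09, 3.21% of all genes called higher in BMAC). As 4 of the 9, TNFAIP3 and IRAK3 among them, reached the floor through BMAC alone, this count and median describe the genes and support nothing. TNFAIP3 (A20), an enzyme that ends NF-kB signalling, was at 286, 2.81 and 96.3 CPM in PBMC, BM-MSC and BMAC, so that BMAC was 34.2-fold above BM-MSC (25.7 to 46.7). NFKBIA, the inhibitor that holds NF-kB in the cytoplasm, was at 33.3, 30.2 and 206 CPM, 6.82-fold above BM-MSC (6.21 to 7.50). IRAK3, a kinase-like inhibitor of the MYD88 complex, was at 27.5, 7.97 and 43.4 CPM, 5.44-fold above BM-MSC (4.52 to 6.60). ZC3H12A, which degrades cytokine messages, was 4.33-fold higher (3.49 to 5.42), with a log2 ratio of 1.95 after the pseudocount. SIGIRR, an inhibitory receptor, was called lower in both marrow libraries than in PBMC, at 16.6, 0.527 and 1.32 CPM. Against PBMC 2 of 9 regulators, 4 of which reached the floor through PBMC alone, were called lower in BM-MSC and 0 higher (median -1.01). In BMAC 1 of 10 was called each way (median 0.53). Over all genes above the floor, 15.7% were called lower and 14.3% higher in BM-MSC than in PBMC (median -0.16). For BMAC the shares were 12.8% lower and 14% higher (median -0.12), near those of the regulators.

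Genes that TLR signalling is known to induce, and other signals too, were uneven in BMAC: of 24 listed, 11 stood at or above 10 CPM there, 11 were under 1 CPM, and 10 of these had 0 counts. Of the 11 at or above 10 CPM, 8 were called higher than in BM-MSC and 0 lower (median 3.46, all genes 0.09, 3.21% of all genes called higher in BMAC). As 5 of the 8 reached the floor through BMAC alone, this count and median describe the genes and support nothing. SAA3, an acute-phase protein gene, was at 718 CPM in BMAC against 4.45 CPM in BM-MSC (161-fold, 129 to 205). VCAM1, an adhesion molecule, was at 140 against 1.05 CPM (133-fold, 83.9 to 225), IL1A at 235 against 2.17 CPM (108-fold, 78.4 to 154), and the neutrophil chemokine CXCL8 at 75.5 CPM, with a single count (0.0586 CPM) in BM-MSC (1290-fold, 231 to 51000). IL6 was 22-fold higher (19.7 to 24.7). ICAM1 and CCL2, in contrast, were high in both marrow libraries, ICAM1 at 171 CPM in BM-MSC and 179 in BMAC, CCL2 at 154 and 358 CPM. The 3 genes called that were above the floor in both marrow libraries were IL6, the chemokine CXCL2 and PTGS2, a prostaglandin enzyme gene whose row overlaps PLA2G4A.

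Among the other response genes, IL1B, TNF, IL10 and CCL5 had most of their counts in PBMC. In PBMC, BM-MSC and BMAC, IL1B had 216, 1 and 0 counts, TNF had 50, 0 and 0, and IL10 had 37, 0 and 0. CCL5 was at 140 CPM in PBMC against 2.17 and 4.43 CPM. IFNB1, the interferon gene of the TICAM1 route, had 0 counts in all 3 libraries. Against PBMC, 4 of 8 response genes above the floor were called higher in BM-MSC and 2 lower (median 2.15, or 2.31 with counts of 0 taken as 3 and no pseudocount), and 11 of 13 higher in BMAC and 2 lower (median 6, or 7.28). Over all genes above the floor, 14.3% and 14% were called higher in BM-MSC and BMAC than in PBMC, and 15.7% and 12.8% lower (medians -0.16 and -0.12). All but 1 of the response genes above the floor in each pair reached it in a single library, so these counts and medians too are descriptions.

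**Figure D5:**
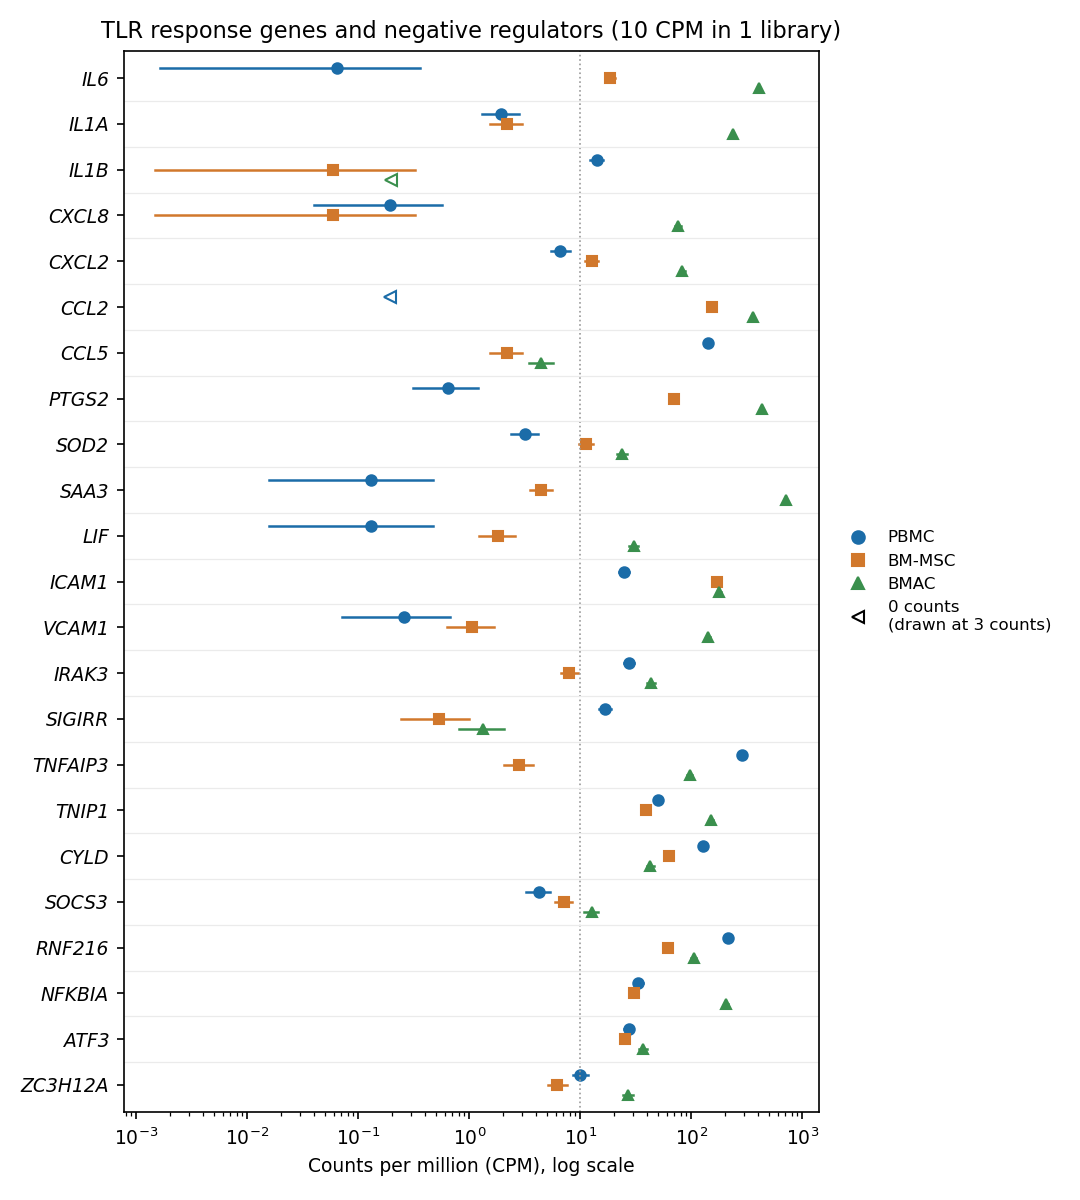
Genes known to be induced by TLR signalling (IL6 to VCAM1) and negative regulators (IRAK3 to ZC3H12A) that reached 10 CPM in at least 1 library, in CPM on a log axis with 95% Poisson intervals and open triangles for 0 counts; the dotted line marks 10 CPM. SAA3, VCAM1, IL1A and CXCL8 lie more than 100-fold apart between BMAC and BM-MSC, whereas ICAM1 (179 and 171 CPM) does not.

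Matrix and damage-associated proteins that are reported to act on TLR2 or TLR4 were mostly higher in the marrow libraries. Of 10 above the floor, 6 were called higher in BM-MSC and in BMAC than in PBMC and 1, S100A8, lower in each (medians 4.97 and 7.09). Over all genes above the floor, 14.3% and 14% were called higher in BM-MSC and BMAC than in PBMC, and 15.7% and 12.8% lower. The medians of all genes were -0.16 and -0.12. In each pair 5 of the 10 reached the floor through the marrow library alone and 1 through PBMC alone. These counts and medians therefore describe the genes and support nothing. BGN, biglycan, a small proteoglycan, stood at 1020 CPM in BM-MSC and 760 in BMAC, with 0 counts in PBMC. PBMC, BM-MSC and BMAC held 41, 3620 and 11500 CPM of FN1, fibronectin, and 4.14, 151 and 761 CPM of TNC, tenascin C. TNC was called higher in BMAC than in BM-MSC (5.04-fold, 4.82 to 5.26) and VCAN, versican, lower (4.22-fold, 3.95 to 4.51). That was 1 of 9 above the floor each way, beside 3.21% of all genes called higher in BMAC and 2.9% higher in BM-MSC. HMGB1, a nuclear protein released by damaged cells, was within 1.66-fold in all pairs. S100A8 was below the floor under TMM or median-of-ratios scaling. BGN, FN1, TNC and VCAN are also part of the matrix that stromal cells make.

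The genes nearest in pattern to 4 members were found by the Euclidean distance between centred log2(CPM + 1) values over the 3 libraries, among genes with a symbol that reached 10 CPM. Nearest to CD14 were TOE1, ACSM3 and IL17D, each of which overlaps another row. TOE1 was at 18.1, 5.21 and 22.5 CPM in PBMC, BM-MSC and BMAC. SLC11A2, ETS1 and PRKD2 were nearest to TLR2, with ETS1 at 510, 31 and 80.5 CPM. NDUFB9, NTPCR and UROD were nearest to TLR3, and TGIF1, CEP41 and UBTD2 to TLR4. A pattern over 3 libraries is not rare: 18 genes lay within a distance of 0.25 of CD14, 20 of TLR2, 119 of TLR3 and 256 of TLR4.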

How the data were processed

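The authors deposited whole-number counts by gene symbol, with unequal totals, and so not normalized. Each library took 500 ng of total RNA, per the labels' protocols. Bowtie2 and bedtools were used, per the submitters' processing notes. Their versions and roles, the genome build, the strand setting and the handling of reads with several matches were not given in the sources used here. Rows that share a symbol were summed (81 symbols, no member). The RefSeq table of Sscrofa11.1 gave names and overlaps only. CPM is the count divided by the total, per 1000000. Intervals are 95% exact Poisson for levels and exact conditional (Clopper-Pearson) for ratios, and cover counting error only, since reads without molecular identifiers are not independent molecules. A ratio against 0 counts takes the 0 as 3 counts and has no interval. Python 3.11.15 with scipy 1.17.1 was used, and edgeR 4.0.16 for TMM factors. The rule was tried on simulated counts with counting error alone, in which the altered genes had higher levels than any member. That trial therefore does not bear on the calls of the members.

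The members, 18 gene lists and rules were chosen with earlier results of these data known. Of 167 listed symbols 6 had no row. Of these, AIM2, CLEC4C and CAMP were not analysed here, while RIGI, CGAS and STING1 are other names of DDX58, MB21D1 and TMEM173, which had rows. Genes named were the members, all genes of the short lists, those with the largest ratios or levels in longer lists, and a few central pathway genes chosen after their values were seen (TRAF6, TBK1, IRF3, TNF, IL10, IFNB1). Where an overlapping row has 25% or more of a gene's count, its name is printed beside that gene. No sequences were used, and coordinates of that table served only to find overlapping and neighbouring rows.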

Additional observations from a re-analysis of the deposited data

How the results depend on the processing

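The number of members called higher in PBMC was 2 against BM-MSC and 2 against BMAC. It was 0 in both with a floor of 50 CPM and 1 in both without the members that overlap another row, an alternative chosen after seeing the data, which leaves out TLR8. With a pseudocount of 5 CPM it was 1 against BMAC, where the log2 ratio of TLR2 became -1.95. With a 2-fold rule it was 3 against BM-MSC, as CD14 (log2 ratio -1.59) was added, and 2 against BMAC. The number called higher in BM-MSC than in PBMC was 0 and became 1, TLR3, with totals that leave out ribosomal RNA and mitochondrial rows, and the number higher in BMAC than in BM-MSC was 0 and became 1, CD14, with a pseudocount of 0.5 CPM or a 2-fold rule. Of 150 log2 ratios of single members under other pseudocounts and scalings, 119 stayed within the counting error of the ratio after the pseudocount, taken from the Poisson intervals of both levels combined in quadrature, 31 moved beyond it and 0 called ratios changed sign. Taking the highest row of a symbol could move none, as no member has repeated rows. MYD88, with at most 1 count, and TLR7 between the marrow libraries, with 0 counts, could hardly move either. The called ratios, the smallest of them -2.69, lay too far from 0 for these settings to change their sign. LY96 in BMAC against BM-MSC, not called, turned to -0.01 without ribosomal and mitochondrial rows. TMM and median-of-ratios scaling moved the median of all genes in BM-MSC against PBMC from -0.16 to 0.23 and 0.26, and the calls towards BM-MSC from 47.6% of all calls to 58.5% and 59.5%. In BMAC against PBMC the median moved from -0.12 to 0.21 and 0.22. No paired analysis was possible because each population had 1 library, and no library could be left out. Depth limits TLR5, TLR7, TLR10 and MYD88, each under 20 counts in every library.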

Other observations

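Other receptors of innate sensing, from a list of 18 symbols of which 14 had a row, were mostly higher in PBMC or close between the libraries. The list held DDX58, MB21D1 and TMEM173 also under the names RIGI, CGAS and STING1, which had no row. Against PBMC, 3 of 8 above the floor were called lower in BM-MSC and 4 of 8 lower in BMAC, and 0 were called higher, beside 15.7% and 12.8% of all genes called lower. In each pair 3 of the 8 reached the floor through PBMC alone. Under TMM or median-of-ratios scaling 2 of 9 were called lower in BM-MSC, TMEM173 and CLEC7A, and IFIH1 was not. The median log2 ratio was -0.87 in BM-MSC, which turned to 0.02 under TMM and 0.04 under median-of-ratios scaling, and -1.14 in BMAC. IFIH1 (MDA5), a cytoplasmic sensor of double-stranded RNA like TLR3 in endosomes, was at 63.1, 12.5 and 10.2 CPM in PBMC, BM-MSC and BMAC, the opposite order to TLR3 for blood and marrow. DDX58 (RIG-I), which overlaps ACO1, was at 34.6, 49.2 and 36.1 CPM, and MAVS, the adaptor of both, at 10.9, 29.8 and 30 CPM. TMEM173 (STING), the adaptor of cytoplasmic DNA sensing, was at 18 CPM in PBMC against 1.35 CPM in BM-MSC (13.4-fold, 8.72 to 21.4) and 1.79 CPM in BMAC (10.1-fold, 6.78 to 15.6), whereas MB21D1 (cGAS), the sensor upstream of it, was at 14, 23.6 and 16.6 CPM. NOD1, a sensor of peptidoglycan, was at 19.4, 6.56 and 3.04 CPM, and CLEC7A (dectin-1), a receptor for fungal glucans, had 250, 2 and 4 counts. NLRP3, an inflammasome sensor, was within 1.55-fold in all pairs.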
